A study of Mus musculus with 12 samples.

Results

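The genes described here are 9 parts of the cytosolic machinery that senses microbes inside cells, taken by symbol from the 23329 genes that were counted. They were the sensors Nod1, Nod2, Nlrp3, Nlrc4 and Aim2, the adaptor Pycard, the caspases Casp1 and Casp4, and the pore protein Gsdmd. They were measured by poly(A)-selected, stranded mRNAseq of cultured stromal cells from the small intestine of mice, labelled intestinal myofibroblasts, grown for 2 to 3 passages from E14.5 embryos (embryonic stroma) or from adult mice (adult stroma) on the C57BL6/J background. Cells of each stage were treated for 6 h with LPS from Escherichia coli, given in the labels as 10 µg/µl, a unit that could not be checked here and a concentration far above common use, or with PBS as vehicle, which gave the 4 groups embryonic PBS, embryonic LPS, adult PBS and adult LPS with 3 libraries each. Neither stage carried a transgene or a deletion by its labels, each embryonic culture came from pooled embryos, and the adult cultures came from 3 adult mice. The study's own flow cytometry found CD45+ CD11b+ cells in cultures of this kind, at a significantly higher percentage in embryonic than in adult ones. Such cultures were therefore neither purely stromal nor alike between the stages in these cells.

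NOD1 and NOD2, encoded by Nod1 and Nod2, bind fragments of bacterial peptidoglycan and signal through the kinase RIPK2 to NF-kB. NLRP3, NLRC4 and AIM2 respond to cell damage, to bacterial flagellin and secretion systems, and to cytosolic DNA, and assemble inflammasomes in which the adaptor ASC (encoded by Pycard) brings in caspase-1 (Casp1). Mouse caspase-11 (Casp4) binds LPS in the cytosol directly. Both caspases cut gasdermin D (Gsdmd), whose fragment forms pores in the cell membrane, and caspase-1 also matures interleukin-1β and interleukin-18.

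Gene counts ranged from 18850224 to 32672370 per library, and 3 counts, taken as the floor, corresponded to 0.0896 to 0.144 CPM, the counts scaled to library size after TMM normalization. That floor covers counting error only. Each of 10 stromal markers stood above the floor in all 12 libraries, with a summed level of 23088 to 44509 CPM. Markers of macrophages were also present, at a summed level of 208 to 2729 CPM in embryonic and 15.2 to 206 CPM in adult libraries, whereas 6 lymphocyte markers summed to at most 0.207 CPM and 4 neutrophil markers to at most 0.385 CPM. The 6 endothelial markers summed to 8.36 to 34.6 CPM in embryonic libraries and to 14.1 to 1788 CPM in adult libraries. The 7 epithelial markers summed to 38.0 to 139 CPM, above the macrophage sum in adult replicates 2 and 3. Markers of dendritic cells and of mast cells, 4 each, summed to at most 19.1 and 30.8 CPM. At least 2 and 3 of them, respectively, were at or under 3 counts in each library. In such bulk cultures, fewer cells of a type and less RNA per cell cannot be told apart. Cultures of a stage were independent by the study's account. Nothing in the labels states that LPS and PBS libraries with a shared number came from the same culture, and such a pair is called a culture here by its number.

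LPS raised 3 of the 9 genes in embryonic stroma, the sensors Nod2 and Nlrp3 and the caspase Casp4, by 5.00 to 5.25 on the log2 scale. A gene was called when edgeR's quasi-likelihood test gave a Benjamini-Hochberg adjusted p under 0.05, over the 13038 genes tested, and the log2 fold change was 2 or more in size. All 9 genes passed the filter on low counts. Nlrc4 did so only through embryonic PBS and Nod2 only through the LPS groups, the groups where they were high. Their calls by edgeR without the block are therefore also given with no filter. With the block and by DESeq2 they were tested only after the filter, so those calls are descriptions. Of all tested genes, 1.87% were called higher with LPS in embryonic stroma. When replicate numbers were entered as a block at each stage, since same-numbered LPS and PBS libraries deviated together, 5 of the 9 were called, Aim2 and Casp1 in addition, beside 3.02% of all genes. In adult stroma none of the 9 was called by edgeR without the block, where 0.422% of all genes were called higher. In that comparison 4 of the 9 had an unadjusted p under 0.05, and DESeq2 called 3 (Nod2, Nlrp3 and Casp4), beside 1.29% of all genes called higher. The block called these same 3 in adult stroma, beside 1.6% of all genes. Over the 9 genes, the median log2 change without the block was 1.95 for embryonic and 1.08 for adult stroma, beside -0.00027 and -0.0075 over all tested genes. In pairs, 7 of the 9 were higher with LPS in all 3 same-numbered pairs of embryonic stroma, as were 23% of all tested genes, and 7 were higher in all 3 adult pairs, as were 23.9% of all tested genes. Nlrc4 and Pycard were the exceptions at both stages. Whether groups or pair ratios overlapped is described below for the 9 genes only. The share of all tested genes without overlap was not counted, so a lack of overlap is a description and not a result about these genes.

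**Figure D1:**
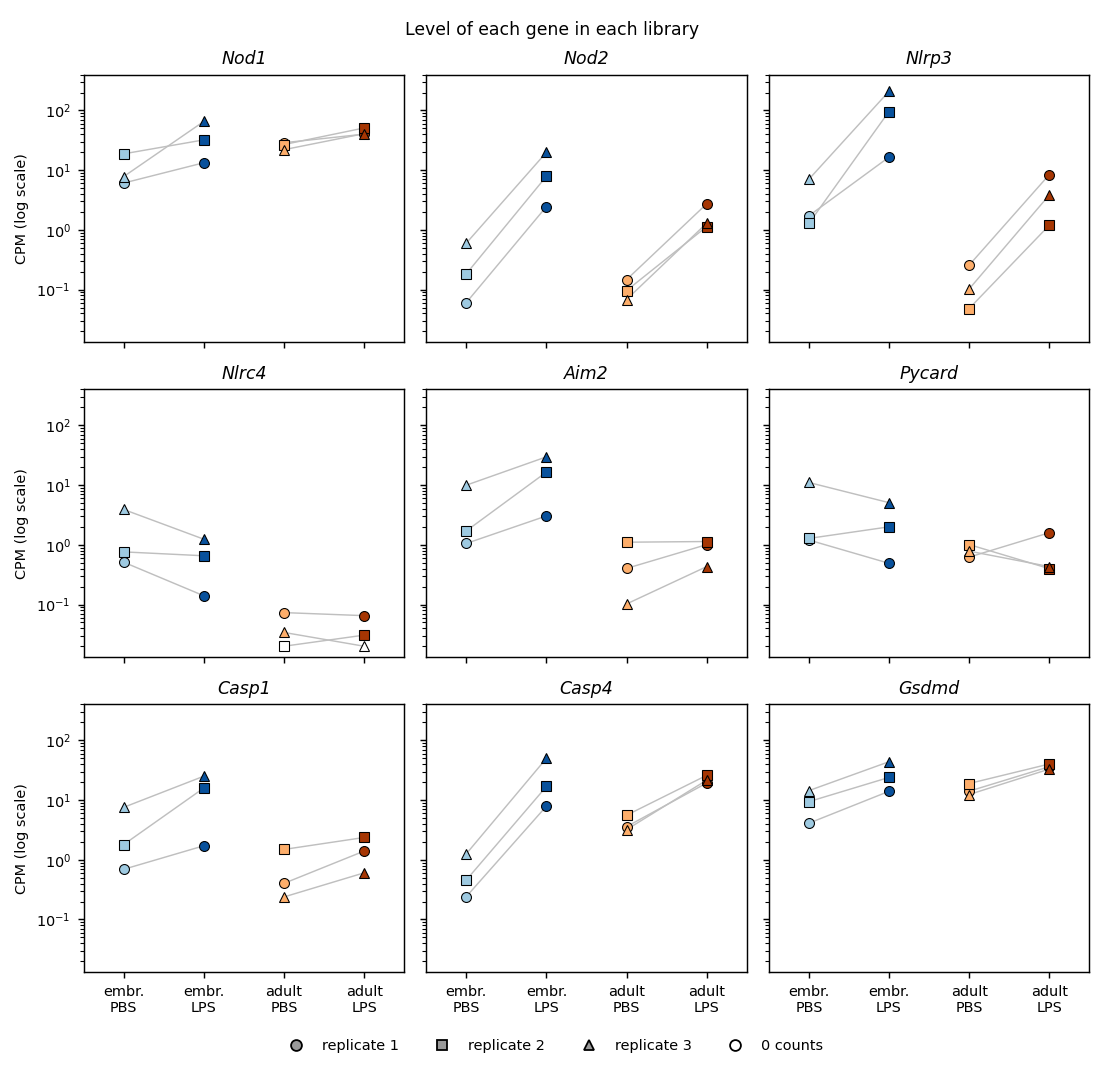
Level of each of the 9 genes in each of the 12 libraries, in CPM on a log axis, with the 3 libraries of a group as points shaped by replicate number, lines joining same-numbered libraries of a stage, and open points for 0 counts. Nod2, Nlrp3 and Casp4 lie higher with LPS in every pair of both stages, while Nlrc4 lies at or under 2 counts in every adult library.

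Nod1 was the most evenly expressed of the 5 sensors. Its level in embryonic PBS libraries was 6.08, 18.8 and 7.80 CPM in replicates 1, 2 and 3, and in embryonic LPS libraries 13.3, 32.2 and 65.6 CPM. In adult PBS it was 28.8, 26.9 and 22.0 CPM, and in adult LPS 40.1, 51.0 and 40.9 CPM. The adult groups did not overlap, whereas the embryonic groups did, because the PBS library of replicate 2 lay above the LPS library of replicate 1. The log2 fold change with LPS was 1.77 ± 0.54 (SE) in embryonic stroma (edgeR adjusted p = 0.158, n = 3 per group) and 0.76 ± 0.53 in adult stroma (edgeR adjusted p = 1.00), so Nod1 was not called at either stage. With the block the adjusted p passed in embryonic stroma with a fold under the threshold (1.65 ± 0.39, edgeR adjusted p = 0.0326), and Nod1 was called there without embryonic LPS replicate 1 (2.17) and, with the block, without embryonic culture 2 (2.16). In embryonic stroma the ratio of LPS to PBS was 8.41 in pair 3 against 2.19 and 1.71 in pairs 1 and 2, a wider spread than in the adult pairs (1.39 to 1.90).

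Nod2 was nearly silent without LPS. It had 2, 6 and 20 counts in the embryonic PBS libraries (0.0602, 0.183 and 0.597 CPM) and 4, 2 and 2 counts in the adult PBS libraries (0.146, 0.0962 and 0.0681 CPM). Under LPS, Nod2 reached 2.45, 7.90 and 19.9 CPM in embryonic and 2.73, 1.14 and 1.30 CPM in adult stroma, with no overlap between LPS and PBS at either stage. The log2 fold change was 5.15 ± 0.93 in embryonic stroma (edgeR adjusted p = 0.0164, and 0.0178 with no filter). In adult stroma it was 4.003 ± 0.99 and not called without the block (edgeR adjusted p = 0.147), but called with it (4.02 ± 0.29, edgeR adjusted p = 0.000208). The pairwise ratios were 40.7, 43.2 and 33.3 in embryonic and 18.7, 11.8 and 19.0 in adult stroma, so the ratios of the stages did not overlap. Their counting intervals were wide, from 10.9 to 343 for the embryonic pair with 2 PBS counts, and the difference between the stages was not called (1.16 ± 0.47 on the log2 scale with the block, edgeR adjusted p = 0.655). Without embryonic PBS replicate 1 or 2 the embryonic call of Nod2 was lost in the fit without the block.

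Nlrp3 had the highest mean per kb of exon of the 9 genes in embryonic LPS. In embryonic PBS it stood at 1.72, 1.28 and 7.02 CPM, and in embryonic LPS at 16.5, 96.1 and 209 CPM. Adult PBS libraries held 0.256, 0.0481 and 0.102 CPM (7, 1 and 3 counts), and adult LPS libraries 8.43, 1.20 and 3.84 CPM. LPS and PBS libraries did not overlap at either stage, and every embryonic library lay above every adult library of the same treatment. The rise with LPS was called in embryonic stroma (log2 fold change 5.00 ± 1.08, edgeR adjusted p = 0.0371). In adult stroma it was of like size but called only with the block (4.95 ± 1.32 without it, edgeR adjusted p = 0.203, and 5.02 ± 0.78 with it, edgeR adjusted p = 0.00872). The difference between the stages in response to LPS was -0.17 ± 0.96 with the block (edgeR adjusted p = 0.986), an SE too wide to show that the responses were equal. The embryonic call was lost in the fit without the block when any 1 of 8 of the 12 libraries was left out, and the log2 fold change then ranged from 4.01 to 6.16 over all 12 omissions. With the block it was kept without any 1 of the 6 cultures, where it ranged from 4.28 to 5.42. The adult call with the block was lost without adult culture 1 (5.02, edgeR adjusted p = 0.144) or 3 (4.93, edgeR adjusted p = 0.0767).

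Nlrc4 was the only sensor that did not have higher counts with LPS in any embryonic pair. Embryonic PBS libraries held 0.512, 0.762 and 3.91 CPM and embryonic LPS libraries 0.140, 0.656 and 1.24 CPM. The groups overlapped, and the log2 fold change of -1.35 ± 0.89 was not called (edgeR adjusted p = 0.766). The pairwise ratios of 0.274, 0.861 and 0.317 were below 1 in 3 of 3 pairs, with counting intervals that reached 1.63 in pair 2. In adult stroma no library had more than 2 counts with either treatment, so no fold is given there.

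Aim2, the DNA sensor, stood at 1.05, 1.71 and 9.98 CPM in embryonic PBS and at 3.05, 16.5 and 29.8 CPM in embryonic LPS. Adult libraries held 0.403, 1.11 and 0.102 CPM with PBS and 1.01, 1.14 and 0.432 CPM with LPS. The treatments overlapped at both stages, and the highest and lowest cultures of a treatment differed widely. Within pairs Aim2 was higher with LPS in 3 of 3 embryonic pairs, by 2.89-fold, 9.69-fold and 2.98-fold. Without the block it was not called in embryonic stroma (1.95 ± 1.02, edgeR adjusted p = 0.592), and with the block it was (2.12 ± 0.37, edgeR adjusted p = 0.00893). That call was lost without both libraries of embryonic culture 2 (1.56 on the log2 scale), a limit chosen after seeing the data. In adult stroma the log2 fold change was 0.73 ± 1.11 (edgeR adjusted p = 1.00).

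The promoters of Nod2 and of Nlrp3 are shown because these sensors gave the largest changes with LPS. They are the 250 bases before the annotated start in RefSeq (build GRCm38.p6), read 5′ to 3′ on the strand of the gene, with matches to the NF-kB consensus in capitals. The Nod2 sequence is chr8:88647097-88647346 (plus strand), and the Nlrp3 sequence is chr11:59541319-59541568 (plus strand), before the upstream of its 2 annotated starts.
Nod2: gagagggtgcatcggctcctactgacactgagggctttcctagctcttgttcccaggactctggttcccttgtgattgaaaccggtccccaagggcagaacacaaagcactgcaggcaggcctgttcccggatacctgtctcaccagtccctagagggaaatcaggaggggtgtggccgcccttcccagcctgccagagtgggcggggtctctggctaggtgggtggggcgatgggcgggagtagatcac
Nlrp3: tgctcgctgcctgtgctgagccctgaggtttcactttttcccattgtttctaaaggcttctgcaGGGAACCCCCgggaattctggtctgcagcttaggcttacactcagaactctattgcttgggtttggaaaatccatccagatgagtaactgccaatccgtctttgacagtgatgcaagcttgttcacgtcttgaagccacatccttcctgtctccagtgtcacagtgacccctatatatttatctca
The NF-kB consensus was found once in the Nlrp3 window, from -186 to -177 counted from the start, and not in the Nod2 window, and 7.25% of 32851 RefSeq promoter windows held it. None of GAAANNGAA (the core of the interferon-stimulated response element, held by 7.13% of windows), TTCNNNGAA (the GAS motif, 7.02%) and TGANTCA (the AP-1 motif, 6.75%), read on both strands, was found in either. Matches are descriptions of these letters and not binding sites.

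Pycard, the adaptor, was not called with LPS at either stage. It stood at 1.20, 1.28 and 11.1 CPM in embryonic PBS and at 0.490, 2.00 and 5.08 CPM in embryonic LPS. In adult stroma it stood at 0.622, 1.01 and 0.783 CPM with PBS and at 1.59, 0.399 and 0.432 CPM with LPS. The treatments overlapped at both stages, and 1 of 3 pairs was higher with LPS in each. The log2 fold change was -0.84 ± 0.99 in embryonic stroma (edgeR adjusted p = 0.974) and 0.02 ± 1.04 in adult stroma (edgeR adjusted p = 1.00), so a change of either sign within these errors was not detectable.

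Casp1 and Casp4 are neighbours on chromosome 9, 1567 bases apart, and their levels followed different patterns. Casp1 stood at 0.693, 1.80 and 7.56 CPM in embryonic PBS and at 1.72, 15.9 and 25.1 CPM in embryonic LPS. Adult libraries held 0.403, 1.49 and 0.238 CPM with PBS and 1.40, 2.36 and 0.605 CPM with LPS. As for Aim2, the treatments overlapped at both stages but each pair was higher with LPS, by 2.48-fold, 8.87-fold and 3.33-fold in embryonic and 3.47-fold, 1.59-fold and 2.54-fold in adult stroma. Casp1 was called in embryonic stroma only with the block (2.14 ± 0.34, edgeR adjusted p = 0.00580, against 2.09 ± 1.07 and 0.580 without it), and that call was lost without both libraries of embryonic culture 2 (1.60 on the log2 scale). In adult stroma it was not called (1.08 ± 1.12, edgeR adjusted p = 1.00).

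Casp4 differed from Casp1 in its even response across cultures. It stood at 0.241, 0.457 and 1.25 CPM in embryonic PBS and at 7.92, 16.9 and 50.1 CPM in embryonic LPS. In adult PBS it already stood at 3.59, 5.58 and 3.20 CPM, and in adult LPS it reached 19.4, 26.0 and 21.6 CPM. LPS and PBS did not overlap at either stage, every embryonic PBS library lay below every adult PBS library, and the LPS libraries of the stages overlapped. The pairwise ratios were 32.9, 37.0 and 39.9 in embryonic stroma and 5.40, 4.66 and 6.74 in adult stroma. The embryonic ratios rest on 8, 15 and 42 PBS counts. Their counting intervals were 16.4 to 77.0, 22.2 to 66.6 and 29.4 to 55.7, so the evenness is known only within these widths. The log2 fold change in embryonic stroma was 5.25 ± 0.78 (edgeR adjusted p = 0.00709), and this call was kept without any 1 of the 12 libraries. In adult stroma the change was 2.44 ± 0.67 without the block (edgeR adjusted p = 0.232) and was called with it (2.46 ± 0.13, edgeR adjusted p = 3.34e-05).

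Casp4 was also the single one of the 9 genes whose response to LPS was called different between the stages. Without the block the difference was 2.81 ± 0.95 on the log2 scale (unadjusted p = 0.0139, edgeR adjusted p = 1.00), where 0% of all genes were called and 293 of them had an unadjusted p under 0.05. With the block it was 2.76 ± 0.21 (edgeR adjusted p = 0.00119), where 0.844% of all genes were called. It was called with the block without any 1 of the 6 cultures (2.63 to 2.88), a check added after seeing the data. DESeq2, which called 25 genes, called none of the 9.

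The promoters of these neighbours are shown as a contrast within 1 locus, again as the 250 bases before the start in RefSeq (build GRCm38.p6), 5′ to 3′, with NF-kB consensus matches in capitals. Casp1 is chr9:5298267-5298516 and Casp4 is chr9:5308599-5308848, both on the plus strand.
Casp1: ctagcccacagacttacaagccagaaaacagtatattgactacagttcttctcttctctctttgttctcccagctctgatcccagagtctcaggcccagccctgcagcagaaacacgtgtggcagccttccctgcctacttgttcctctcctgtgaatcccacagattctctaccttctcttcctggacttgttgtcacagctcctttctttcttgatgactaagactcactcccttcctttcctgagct
Casp4: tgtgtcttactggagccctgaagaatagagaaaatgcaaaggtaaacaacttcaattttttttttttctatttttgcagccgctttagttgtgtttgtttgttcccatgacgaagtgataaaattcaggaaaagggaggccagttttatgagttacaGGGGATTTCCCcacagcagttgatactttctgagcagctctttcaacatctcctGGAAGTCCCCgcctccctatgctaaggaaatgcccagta
The Casp4 window held 3 matches to the NF-kB consensus, a pair that overlap from -93 to -83 counted from the start and 1 from -39 to -30. The Casp1 window held no match to any of the 4 motifs. A promoter entry existed for 8 of the 9 genes, with 11 starts between them, of which 4 held any match. These were both starts of Casp4, which lie 11 bases apart, the Nlrp3 start shown above, and 1 start of Nod1 with a TTCNNNGAA match.

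Gsdmd, the executioner, had, per kb of exon, the highest mean of the 9 genes in every group but embryonic LPS, where Nlrp3 was higher. Embryonic PBS libraries held 4.09, 9.41 and 14.4 CPM and embryonic LPS libraries 14.04, 24.0 and 43.9 CPM. Adult PBS libraries held 14.1, 18.9 and 12.4 CPM and adult LPS libraries 36.3, 40.2 and 33.1 CPM. The adult groups did not overlap, and the embryonic groups overlapped only in that the PBS library of replicate 3 lay above the LPS library of replicate 1. The pairwise ratios were 3.43, 2.55 and 3.05 in embryonic and 2.57, 2.12 and 2.67 in adult stroma. The log2 fold change was 1.55 ± 0.47 in embryonic stroma (edgeR adjusted p = 0.150) and 1.27 ± 0.46 in adult stroma (edgeR adjusted p = 0.576). With the block the adjusted p passed at both stages (1.57 ± 0.11, edgeR adjusted p = 8.01e-05, and 1.29 ± 0.11, edgeR adjusted p = 0.000504), with folds under the fold threshold, so Gsdmd was not called.

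**Figure D2:**
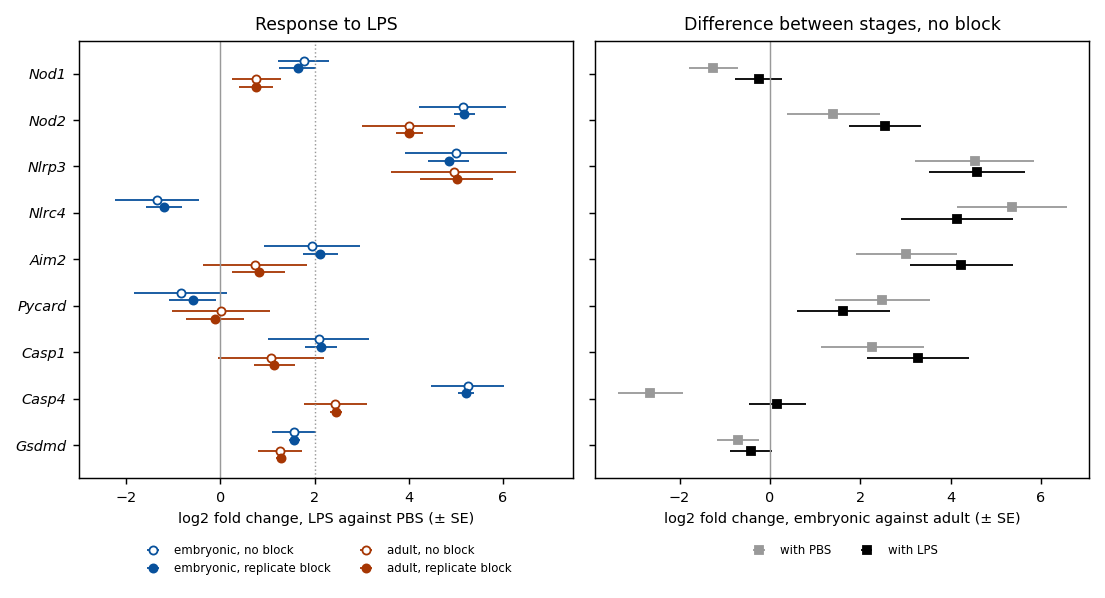
Left, log2 fold change of LPS against PBS (± SE) for each gene in embryonic (blue) and adult (brown) stroma, without (open) and with (filled) the replicate block, with the fold threshold dotted. Right, log2 fold change of embryonic against adult stroma without the block. Casp4 responded by 5.25 in embryonic and 2.44 in adult stroma, and its stage difference went from -2.65 with PBS to 0.16 with LPS. The Nlrc4 values on the right depend on the prior count, and Nlrc4 is left out on the left for adult stroma, where it was at the floor.

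Without LPS, 1 of the 9 genes was called different between the stages, beside 2.23% of all genes in either direction. This was Nlrc4, at 0.512 to 3.91 CPM in embryonic PBS against at most 2 counts in any adult library. It had entered the test only through embryonic PBS, the group where it was high, so the call is a description and not a result about these genes. Its fitted log2 difference of 5.35 (edgeR adjusted p = 0.0395, and 0.0485 with no filter) depends on the prior count, and the call was lost when any 1 of 8 of the 12 libraries was left out. Nlrp3 and Pycard were also higher in every embryonic PBS library than in any adult one, with log2 differences of 4.53 ± 1.33 (edgeR adjusted p = 0.0850) and 2.49 ± 1.05 (edgeR adjusted p = 0.221). Casp4 and Nod1 lay the other way, lower in every embryonic than in any adult PBS library. For Casp4 the difference of -2.65 ± 0.72 missed the threshold (edgeR adjusted p = 0.0673). It was called with the replicate number as a block across stages (-2.92, edgeR adjusted p = 0.0297). Same-numbered libraries of different stages did not deviate together (mean r = -0.164), so that block had no basis in the labels or the data. For Nod1 the difference was -1.25 ± 0.53 (edgeR adjusted p = 0.224), and Nod2, Aim2, Casp1 and Gsdmd overlapped between the stages. How many of all tested genes lay apart between the stages was not counted, so these orders are descriptions. DESeq2 called 4 of the 9 with PBS, beside 5.33% of all genes. These were Nlrc4, Nlrp3 (4.59, DESeq2 adjusted p = 0.000222), Aim2 (2.99, DESeq2 adjusted p = 0.0273) and, lower in embryonic stroma, Casp4 (-2.67, DESeq2 adjusted p = 0.00176).

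With LPS, 1 of the 9 was called, Nlrp3, beside 2.95% of all genes. Its embryonic LPS libraries lay 4.58 ± 1.06 above the adult ones on the log2 scale (edgeR adjusted p = 0.0367), and the call was lost when any 1 of 7 of the 12 libraries was left out. Aim2 and Nlrc4 were higher in every embryonic LPS library than in any adult one, an order not counted over all tested genes, but missed the threshold (edgeR adjusted p = 0.0588 and 0.0812). The log2 difference was 4.24 ± 1.14 for Aim2, and none is given for Nlrc4, whose fitted value rests on 2, 1 and 0 counts in adult LPS and depends on the prior count. Nod2 and Casp1 gave 2.54 ± 0.80 (edgeR adjusted p = 0.0948) and 3.28 ± 1.13 (edgeR adjusted p = 0.124), with groups that overlapped. DESeq2 called 5 of the 9 with LPS, beside 5.84% of all genes, namely Nlrp3, Aim2 (DESeq2 adjusted p = 0.000413), Casp1 (0.0128), Nlrc4 (0.0159) and Nod2 (0.020). Casp4, Gsdmd and Nod1 were close to level between the stages with LPS, at 0.16 ± 0.63, -0.42 ± 0.46 and -0.25 ± 0.52.

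Levels of several of these genes moved with the macrophage markers. The summed level of 14 such markers was 222, 450 and 2729 CPM in embryonic PBS, 208, 1104 and 2348 CPM in embryonic LPS, 187, 19.1 and 41.1 CPM in adult PBS, and 206, 15.2 and 44.1 CPM in adult LPS. None of the 14 was at or under 3 counts in an embryonic library, and at most 2 were in an adult library. The LPS to PBS ratio of this sum within pairs was 0.937, 2.46 and 0.860 in embryonic and 1.10, 0.796 and 1.07 in adult stroma. Embryonic pair 2 therefore held more macrophage marker RNA with LPS than with PBS. It was the pair with the largest ratios of Nlrp3 (75.1), Nod2 (43.2), Aim2 (9.69), Casp1 (8.87), Pycard (1.56) and Nlrc4 (0.861). Pycard was higher with LPS only there, with ratios of 0.407 and 0.459 in pairs 1 and 3. The largest ratios of Nod1 (8.41) and Casp4 (39.9) were in pair 3, and that of Gsdmd (3.43) was in pair 1. In pairs 1 and 3, where the sum hardly moved, Nlrp3 was 9.63-fold and 29.8-fold higher with LPS, and Casp4 was 32.9-fold and 39.9-fold higher. The markers within the sum did not all move together. Ptprc, Fcer1g, Spi1 and Adgre1 were higher with LPS in 3 embryonic pairs, and Lyz2 in 2. Cd68, Laptm5, Aif1, Itgam, Tyrobp, Mrc1, C1qa, C1qb and C1qc were higher in only 1. The part of the macrophage content in these results was not tested.

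Levels were also set against the marker sum of the same library. Per 1000 CPM of the 14 markers Nlrp3 was 79.6, 87.0 and 89.1 CPM in embryonic LPS and 41.0, 78.6 and 87.1 CPM in adult LPS, with ranges that overlapped. With PBS it was 7.74, 2.85 and 2.57 CPM in embryonic and 1.37, 2.51 and 2.49 CPM in adult libraries on the same scale. Each embryonic value lay above each adult one, but the adult values rest on 7, 1 and 3 counts, too few to read this order further. Casp4 stood at 38.1, 15.3 and 21.3 CPM in embryonic LPS and 94.1, 1708 and 489 CPM in adult LPS per 1000 CPM of markers, and it was nearly level across adult cultures whose marker sums ran from 15.2 to 206 CPM. Nod1 and Gsdmd were likewise at similar levels in the 3 adult LPS libraries. Aim2 and Casp1 stood at 12.7 to 15.0 CPM and 8.26 to 14.4 CPM per 1000 CPM of markers in embryonic LPS. In adult PBS both were highest in replicate 2 (1.11 and 1.49 CPM), as were Casp4 (5.58 CPM), Gsdmd (18.9 CPM) and Pycard (1.01 CPM). Nod1 and, at few counts, Nod2, Nlrp3 and Nlrc4 were highest in replicate 1. In adult PBS replicate 2 the macrophage sum was lowest, and the endothelial sum was 1788 CPM against 19.9 and 378 CPM in replicates 1 and 3. The part of endothelial cells in this was not tested either.

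**Figure D3:**
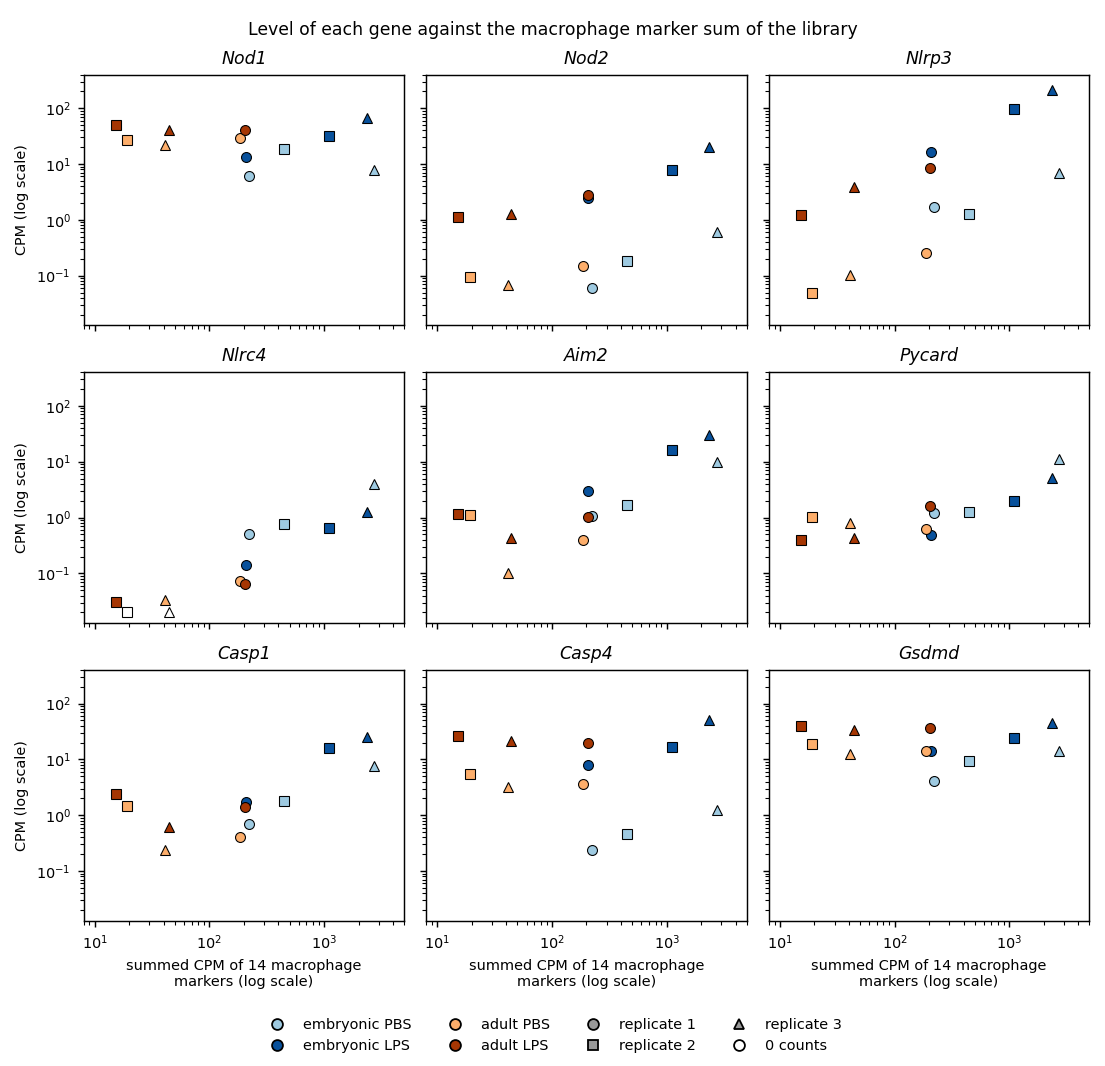
Level of each gene (CPM, log axis) against the summed CPM of the 14 macrophage markers of the same library (log axis), coloured by group and shaped by replicate, with open points for 0 counts. Nlrp3 rises with the marker sum over the 6 LPS libraries. The 6 PBS libraries lie lower and form no single band. At marker sums of 222 and 187 CPM, embryonic PBS 1 had 1.72 CPM of Nlrp3 and adult PBS 1 had 0.256 CPM. Casp4, Nod1 and Gsdmd stand at like levels in adult LPS libraries whose marker sums differ from 15.2 to 206 CPM.

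Divided by exon length from the GENCODE annotation, levels can be set side by side between genes. In adult PBS the mean was highest for Gsdmd (6.37 ± 1.43 CPM per kb, SD, n = 3) and Nod1 (5.10 ± 0.69), which overlapped, then Casp4 (1.11 ± 0.34), with the other 6 genes at or under 0.475. In adult LPS the order was Gsdmd (15.4 ± 1.5), Nod1 (8.66 ± 1.19), Casp4 (6.02 ± 0.91), Nlrp3 (1.11 ± 0.90) and Casp1 (0.973 ± 0.589), and the first 3 did not overlap one another. With the longest transcript as the length, Casp4 (11.7 ± 1.8) came before Nod1 (10.2 ± 1.4) there. On embryonic PBS the order was Gsdmd (3.91 ± 2.17), Casp1 (2.24 ± 2.46) and Nod1 (2.14 ± 1.36), with wide spreads that overlapped, and Casp4 (0.175 ± 0.144) was next to lowest, above Nod2 (0.0559 ± 0.0561). In embryonic LPS Nlrp3 had the highest mean (26.4 ± 23.9), before Gsdmd (11.5 ± 6.4), Casp1 (9.53 ± 7.89), Nod1 (7.29 ± 5.21) and Casp4 (6.73 ± 5.99), and the 5 ranges overlapped. With the longest transcript, Nod1 (2.52 ± 1.60) came before Casp1 in embryonic PBS, and in embryonic LPS Casp4 (13.1 ± 11.7) came after Gsdmd, before Casp1 and Nod1 (8.58 ± 6.14). The exon length of Pycard in GENCODE (3800 bases) is longer than its whole RefSeq gene, and its value per length is read no further.

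**Figure D4:**
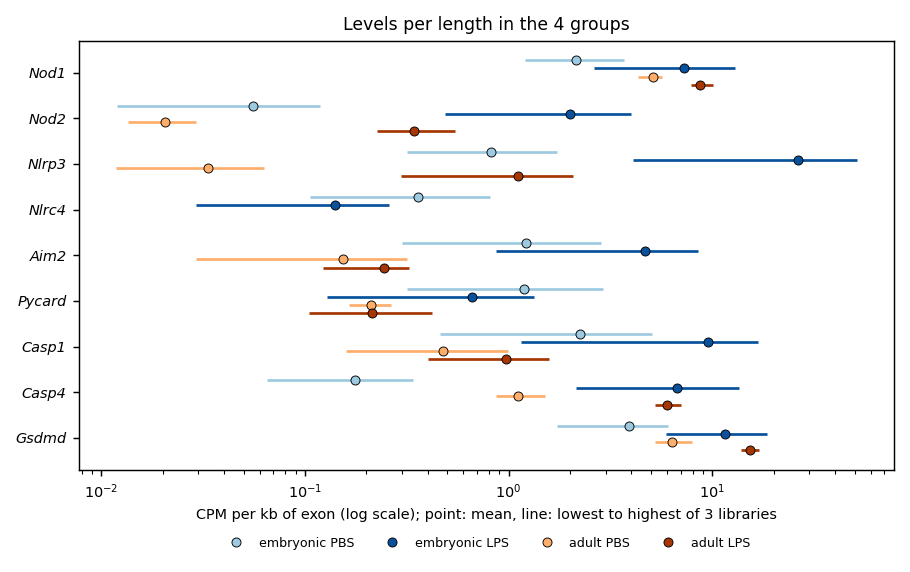
Mean level per kb of exon in each group (point) with the lowest and highest of 3 libraries (line), in CPM per kb on a log axis. Nlrp3 spans from 0.0334 CPM per kb on average in adult PBS to 26.4 in embryonic LPS, whereas Gsdmd stays between 3.91 and 15.4. Nlrc4 is not drawn for adult groups, where it was at the floor.

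The genes most like each of the 9 in pattern were found by Pearson's r of log2 CPM over the 12 libraries, which share cultures and groups, so r is a description. Nod2 was closest to Ccrl2 (r = 0.990) and to Tnf (r = 0.985), the inflammatory cytokine. Nlrp3 was closest to the chemokine gene Ccl3 (r = 0.980) and to Pik3r5 (r = 0.979). Nlrc4 was closest to Vav1 (r = 0.981) and Ptpn7 (r = 0.980), and Aim2 to Hcls1 (r = 0.975) and to Casp1 (r = 0.972). Vav1, Ptpn7 and Hcls1 are known from blood cells. Casp4 was closest to H2-T10 (r = 0.975) and Tap2 (r = 0.970), genes of MHC class I and its peptide transporter. Nod1 was closest to Enpp4 (r = 0.966) and St3gal1 (r = 0.951), and Gsdmd to Il13ra1 (r = 0.965) and Ampd3 (r = 0.958). Pycard was closest to Osgep (r = 0.948), and Casp1, after Aim2, to Ppm1h (r = 0.969). Among the 9 themselves, Casp4 and Gsdmd (r = 0.941) and Nod2 and Nlrp3 (r = 0.914) followed Aim2 and Casp1, while Casp1 and its neighbour Casp4 gave r = 0.370.

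Of 15 further genes, other members of the NLR family together with Mefv, 5 passed the filter, and 1 was called in embryonic stroma. This was Nlrc5, the activator of MHC class I genes, at 0.482, 0.670 and 3.17 CPM with PBS and 10.7, 36.7 and 107 CPM with LPS (5.16 ± 0.97, edgeR adjusted p = 0.0202). Adult stroma had 0.659, 0.818 and 0.545 CPM of it with PBS and 1.27, 3.44 and 1.55 CPM with LPS, with none of the 5 called. Naip2 and Naip5, which bind bacterial ligands for NLRC4, had log2 fold changes of -0.06 ± 0.69 and -0.30 ± 0.91 with LPS in embryonic stroma (edgeR adjusted p = 0.999 for both). Naip5 stood at 0.693, 1.04 and 6.60 CPM in embryonic against 0.183, 0 and 0.0681 CPM in adult PBS, and like Nlrc4 it passed the filter only through embryonic PBS, so no test of this difference is given. The difference of Naip2 with PBS was not called (2.74 ± 0.75, edgeR adjusted p = 0.0695).

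The relay from NOD1 and NOD2 was measured by 21 genes, all tested, of which 3 were called higher and none lower in embryonic stroma. They were Birc3 (3.40 ± 0.31, edgeR adjusted p = 0.000916), a ubiquitin ligase, Tnfaip3 (3.26 ± 0.59, edgeR adjusted p = 0.0171), which encodes the inhibitor A20, and Ripk2 (2.22 ± 0.36, edgeR adjusted p = 0.0102). In adult stroma 2 were called, Birc3 (2.45 ± 0.30, edgeR adjusted p = 0.00683) and Ripk2 (2.29 ± 0.36, edgeR adjusted p = 0.0215). Ripk2 stood at 41.6, 41.5 and 21.9 CPM with PBS and 136, 95.7 and 258 CPM with LPS in embryonic cultures, and at 45.1, 34.3 and 44.5 CPM and 187, 193 and 227 CPM in adult stroma. RNA of Ripk2 was thus measured before LPS at both stages, when Nod2 had at most 20 counts. With the block 4 of the 21 were called at each stage, Birc3, Tnfaip3, Ripk2 and Slc15a3. Slc15a3, which carries peptidoglycan fragments out of endosomes, was called higher in embryonic than adult stroma with PBS (4.86 ± 1.13, edgeR adjusted p = 0.0430) and with LPS (4.64 ± 1.07, edgeR adjusted p = 0.0364).

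Among 20 tested genes that license or restrain inflammasomes, 3 were called higher in embryonic stroma and 2 in adult stroma. With the block these counts were 6 and 3, with Zbp1 (4.99 ± 0.33, edgeR adjusted p = 4.67e-05), Trim30a and Serpinb1a in addition in embryonic and Zbp1 in adult stroma. Gbp5 and Gbp2, guanylate-binding proteins that expose cytosolic LPS to caspase-11, were called at both stages. Gbp2 stood at 7.53, 5.82 and 12.3 CPM with PBS and 278, 229 and 1363 CPM with LPS in embryonic cultures (6.19 ± 0.72, edgeR adjusted p = 0.00238), and its adult change was 3.58 ± 0.64 (edgeR adjusted p = 0.0404). Gbp5 had 0, 0 and 8 counts in the embryonic PBS libraries and 62.5, 192 and 641 CPM with LPS (edgeR adjusted p = 0.00188), and in adult stroma it went from 0.183, 0.577 and 0.341 CPM to 54.1, 83.7 and 41.6 CPM (edgeR adjusted p = 0.0131). Gbp5 and Zbp1, like Il1b, passed the filter only through the LPS groups, where they were high. The LPS calls of these genes are therefore descriptions, and the counts of called genes include them. Mlkl, the executioner of necroptosis, was called in embryonic stroma (2.97 ± 0.68, edgeR adjusted p = 0.0498) and was lower in embryonic than adult PBS (-2.79 ± 0.68, edgeR adjusted p = 0.0494). Serpinb1a, whose product is a protease inhibitor, was also lower in embryonic than adult PBS (-4.28 ± 0.72, edgeR adjusted p = 0.0124).

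Among 11 genes for products of the pathway, 3 were called higher in embryonic stroma and none by edgeR in adult stroma, where 4 had an unadjusted p under 0.05. With the block 4 were called in embryonic stroma, Il18bp in addition, and 3 in adult stroma, Il1b, Il1a and Il1rn. Il1b, the main substrate of caspase-1, went from 0.723, 0.396 and 2.90 CPM to 324, 418 and 2813 CPM in embryonic stroma (9.78 ± 1.36, edgeR adjusted p = 0.00528). In adult stroma it went from 6, 0 and 1 counts to 24.6, 4.67 and 13.3 CPM (edgeR adjusted p = 0.0658 without the block and 1.93e-05 with it). Il1a and the receptor antagonist gene Il1rn were called with it in embryonic stroma (8.10 ± 1.18, edgeR adjusted p = 0.00649, and 6.28 ± 1.00, edgeR adjusted p = 0.00936). All 3 were also called higher in embryonic than adult LPS (Il1b 6.38 ± 1.17, edgeR adjusted p = 0.0179). Il18, the other caspase-1 substrate, was not called with LPS at either stage (1.72 ± 0.93, edgeR adjusted p = 0.619, and -0.20 ± 0.90, edgeR adjusted p = 1.00). Its level in embryonic stroma was 0.361, 4.14 and 2.39 CPM with PBS and 0.841, 8.83 and 13.04 CPM with LPS, higher with LPS in 3 of 3 pairs, and with the block its adjusted p passed there with a fold under the threshold (1.66 ± 0.27, edgeR adjusted p = 0.00677). Its level in adult stroma was 12.7, 5.77 and 7.60 CPM with PBS and 11.5, 5.16 and 6.13 CPM with LPS, lower with LPS in 3 of 3 pairs. The difference between the stages in the response of Il18 was 1.87 ± 0.36 with the block and was not called (edgeR adjusted p = 0.0789).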

How the data were processed

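Counts of 12 mRNAseq libraries were analysed. The authors trimmed adaptors and low-quality bases, aligned the reads to GRCm38.p6 (mm10) by STAR, allowing 1 mismatch and unique hits only, and deposited raw counts per gene symbol, without normalization, for either strand and for each strand. The sense strand was told apart by its totals, since the opposite strand held 1.14% to 1.98% of the gene counts. Rows that name no gene (17.4% to 19.9% of a library) were left out.

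The 9 genes, the pathway and marker lists, and the tests were chosen with earlier results of these data known. Genes above 0.5 CPM in all libraries of at least 1 group were tested with edgeR 4.0.16 (glmQLFTest, TMM factors, R 4.3.3) in 1 fit of the 4 groups, with Benjamini-Hochberg adjustment over 13038 genes and the thresholds given in the report. The SE is the absolute log2 fold change divided by the square root of F. The numbers in the labels paired the libraries by the correlation of deviations from group means (r = 0.610 to 0.850 for the 6 same-numbered pairs of a stage), so a fit with that block was made. Alternatives were DESeq2 1.42.0, other size factors, other filters, both strands together, a block across stages, fewer libraries, and other thresholds. The edgeR script was tested on simulated data. Ratios within pairs carry exact 95% counting intervals, which cover counting error only.

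Named beside the 9 genes were, from each list, up to 4 genes called with the largest change in embryonic stroma, up to 2 called in another comparison, and Ripk2, Il1b, Il18, Naip2 and Naip5 in any case. The values of 1 gene alike in pattern are not reported here. Symbols were matched to RefSeq (20748 directly and 2360 through a synonym), which gave promoters and coordinates. Exon lengths came from GENCODE M21 on the same build. A pseudogene overlaps Nlrc4 by 355 bases on its strand, which is the single overlap on the same strand among the 9 genes, and Aim2 overlaps Cadm3 on the opposite strand. Figures were drawn with Python 3.11.15 and matplotlib 3.10.9.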

Additional observations from a re-analysis of the deposited data

Results flagged for a closer look

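The difference between the stages in the response to LPS was called for 4 of the genes examined, each only with the replicate block, and in each the embryonic change was the larger. For Casp4 it was 2.76 on the log2 scale. Among the pathway genes, it was 3.61 for Nlrc5 (edgeR adjusted p = 0.00814), 4.48 for Gbp5 (edgeR adjusted p = 0.0168) and 3.19 for Trim30a (edgeR adjusted p = 0.00403), an interferon-inducible gene of the TRIM family. Gbp5 had 0 counts in 2 embryonic PBS libraries, so its value depends on the prior count.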

How the results depend on the processing

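With the replicate block at each stage, 5 of the 9 genes were called in embryonic stroma (3 without it), 3 in adult stroma (0 without it) and 1 for the difference between stages in the response (0 without it), and of the tested genes of the 4 pathway lists 10 were called in adult stroma (4 without it) and 3 for that difference (0 without it). The 6 libraries of 1 stage or treatment fitted alone called 0 of the 9 in embryonic stroma and 2 in adult stroma. They called 0 of the 9 between the stages with PBS and with LPS. In the same order they called 0, 8, 1 and 0 pathway genes. Of all tested genes they called 4 of 12620, 124 of 12543, 113 of 12725 and 51 of 12824. DESeq2 called 3 of the 9 in adult stroma and 4 and 5 between the stages with PBS and with LPS, and 8, 8 and 9 pathway genes in the same order, beside 1.29% (higher only), 5.33% and 5.84% of all genes. At an adjusted p under 0.01, 1 of the 9 (Casp4) was called in embryonic stroma and 0 between the stages with PBS and with LPS, and the pathway genes called were 6 in embryonic and 1 in adult stroma and 0 between the stages with PBS and with LPS. The share of all tested genes at that threshold was not counted. No filter, edgeR's own filter, and counts on either strand each left 2 pathway genes called between the stages with PBS (4 by the reported fit). A block across stages called 2 of the 9 between the stages with PBS, beside 362 of 13038 tested genes. The other size factors kept each of these counts within 1.5 times. The causes were not tested.

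Leaving out libraries or, with the block, cultures gave 1 to 5 of the 9 genes called in embryonic stroma, 0 to 3 in adult stroma, 0 to 1 for the difference in response, 0 to 2 between the stages with PBS and 0 to 3 with LPS. Among all tested genes the number called also ranged widely under these omissions. In the same order it was 84 to 510, 4 to 230, 0 to 164, 110 to 382 and 85 to 467. The pathway genes called ranged over 5 to 16, 0 to 10, 0 to 6, 0 to 5 and 0 to 9 in that order. Without embryonic PBS replicate 1 or 2 Casp4 was the single one of the 9 called in embryonic stroma, and the embryonic call of Nlrp3 was also lost without adult LPS replicate 3, adult PBS replicate 1, 2 or 3, or embryonic LPS replicate 2 or 3. Without adult LPS replicate 1, 2 or 3, adult PBS replicate 1, 2 or 3, or embryonic PBS replicate 1 or 3, the stage call of Nlrc4 with PBS was lost, and without any of these 6 adult libraries or embryonic LPS replicate 3 that of Nlrp3 with LPS was lost.

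Directions that turned belonged to changes that were not called. The block across stages gave -0.18 for Casp4 between the stages with LPS. Pycard in adult stroma was -0.11 with the replicate block and -0.00092 by DESeq2, and the difference in response of Nlrp3 was -0.17 with the block and -0.0082 by DESeq2. When libraries or cultures were left out, the log2 change with LPS ran from -2.16 to 0.086 for Nlrc4 and from -1.91 to 1.02 for Pycard in embryonic stroma, and from -1.10 to 0.41 for Pycard in adult stroma. The difference in response ran from -0.93 to 1.21 for Nlrp3, from -1.92 to 1.00 for Pycard, from -0.10 to 2.43 for Casp1 and from -0.27 to 0.75 for Gsdmd. Between the stages with LPS, Nod1 ran from -0.99 to 0.15 and Casp4 from -0.88 to 0.58. Depth limited Nod2 and Nlrp3 in adult PBS and Nlrc4 in all adult libraries, where counts were at most 7. It also limited Nod2 in embryonic PBS replicates 1 and 2, with 2 and 6 counts. Casp4 had 8 and 15 counts in the same libraries.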
